A study of Mus musculus with 172 samples.

Results

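Trim43a, Trim43b, Trim43c, Pramel4, Pramel5, Pramel6 and Pramel7 belong to 2 gene families that mouse embryos transcribe before implantation, and they were followed here in inner cell mass (ICM) cells with and without the transcription factor OCT4. The members were taken by symbol, 7 of the 49671 genes in the count tables, chosen by earlier results of these data, in which their embryo sums and shares of cells were high in mid blastocysts, near 0 in control ICMs of late blastocysts and still above 0 in late ICMs without OCT4. Their levels in these stages and genotypes are therefore given as a description without a test, and the genes were tested only between HET and WT embryos, which the choice had pooled.

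The study asked what the ICM becomes when OCT4, encoded by Pou5f1, is missing. Parents of mixed background, heterozygous for a Pou5f1 null allele, were mated inter se, ICMs were freed of trophectoderm (TE) by immunosurgery at embryonic day (E) 3.5 (mid blastocyst) or E4.5 (late blastocyst), embryos were genotyped from the lysed TE, and single cells were sequenced with a full-length RNA protocol. The E3.5 groups were E3.5 WT/HET (58 cells of 7 embryos, 5 wild type and 2 heterozygous) and E3.5 MUT (29 cells of 4 embryos). The E4.5 groups were E4.5 EPI (37 cells), E4.5 PrE (29 cells) and E4.5 MUT (19 cells of 2 embryos). MUT embryos were homozygous for the null allele. EPI and PrE cells came from the same 6 WT or HET embryos, of which embryos 5 and 6 were wild type and the others heterozygous. EPI (epiblast) and PrE (primitive endoderm) are the derivatives of the normal ICM, and the study assigned control cells to them from these same transcriptomes. Cells of an embryo share their source, so counts were summed per embryo and lineage into 25 sums, and a level is the count in such a sum scaled to a library of 1000000 counts (CPM), with its SD over embryos.

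Cells held 363819 to 4644070 counts in genes and sums 2736296 to 17453036. Pou5f1 stood at 298 ± 98.6 CPM (SD, n = 7) in E3.5 WT/HET embryos, at 2.73 to 5.93 CPM in the 4 E3.5 MUT embryos and at 0 in both E4.5 MUT embryos, so the targeted gene went against no genotype label. All E4.5 cells came from plate 1 and all E3.5 cells from plate 2, so stage and plate cannot be told apart. In sums, fewer expressing cells and less RNA per cell cannot be told apart either, and the cells are therefore described on their own further on. Among defining lineage markers, the TE gene Gata3 rose from 10.2 ± 8.25 to 172 ± 18.1 CPM (n = 7 and 4) without OCT4 at E3.5, whereas Cdx2 was at 2.63 and 1.85 CPM. The summed level of 12 TE markers ranged from 245 to 873 CPM in E3.5 WT/HET, 696 to 1385 in E3.5 MUT, 59.2 to 168 in EPI, 136 to 496 in PrE and 3891 to 5075 in E4.5 MUT, and its part in the results for the Trim43 and Pramel genes was not tested. E4.5 EPI cells carried the EPI markers Nanog, Sox2 and Fgf4 at 277, 31.2 and 71.0 CPM, and E4.5 PrE cells the PrE markers Gata4 and Sox17 at 206 and 241 CPM. In E4.5 MUT, Nanog, Sox2 and Fgf4 were at 516, 10.4 and 18.9 CPM and Gata4 and Sox17 at 1.01 and 9.49 CPM. As whole lists, the 8 EPI markers summed to 492 to 1144 CPM in E4.5 MUT, 2217 to 3909 in EPI and 225 to 397 in PrE. By edgeR 4 of 8 were called lower and 0 higher against EPI, and 3 lower and 1 higher against PrE. The 8 PrE markers summed to 518 to 788 CPM against 5.75 to 73.8 in EPI (2 of 8 called higher) and 2725 to 5790 in PrE (4 of 8 called lower). Of the TE markers tested, 5 of 11 were called higher against EPI and 2 of 12 against PrE, and 0 lower. Of all genes tested, 4.92% were called against EPI and 3.81% against PrE.

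TRIM proteins carry a RING domain, B-boxes and a coiled coil, and many act as ubiquitin ligases. The Trim43 genes are known from preimplantation embryos, and their human counterpart is a target of the embryonic genome activation factor DUX4. Proteins of the PRAME family, to which the Pramel genes belong, are built of leucine-rich repeats, and several serve as the substrate receptor of a cullin ligase built on CUL2. Pramel6 and Pramel7 are known for supporting the naive state of mouse embryonic stem cells, and PRAMEL7 is known to target UHRF1, the partner that brings the DNA methyltransferase DNMT1 to replicated DNA, for degradation.

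Positions are on GRCm38, the build of the files. The Trim43 genes lie apart from each other on chromosome 9, Trim43a at chr9:88580891-88588819 on the plus strand, Trim43c at chr9:88839164-88848190 on the plus strand and Trim43b at chr9:89084624-89092835 on the minus strand. Pramel4 (chr4:144059126-144069327, plus) and Pramel5 (chr4:144270633-144280488, minus) belong to a cluster of PRAME genes on chromosome 4, and Pramel6 (chr2:87506565-87510872, plus) and Pramel7 (chr2:87489087-87497093, minus) are neighbours on chromosome 2. How alike the copies are decides which read pairs can be given to each gene. The coding sequences of Trim43a and Trim43b were 98.4% identical, those of Trim43b and Trim43c 97.8% and those of Trim43a and Trim43c 96.9%. A stretch of 120 coding bases, from coding base 69 to 188, shows what separates the 3 copies where they differ most. The stretch was picked as the window without gaps, within 1 exon, that had the most differing positions, so the rest is more alike. It covers chr9:88582106-88582225 in Trim43a, chr9:89091491-89091610 in Trim43b and chr9:88840371-88840490 in Trim43c, and capitals mark the 10 positions at which the copies are not all the same:
Trim43a: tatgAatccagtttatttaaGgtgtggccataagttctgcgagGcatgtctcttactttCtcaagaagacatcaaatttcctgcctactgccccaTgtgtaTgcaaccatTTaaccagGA
Trim43b: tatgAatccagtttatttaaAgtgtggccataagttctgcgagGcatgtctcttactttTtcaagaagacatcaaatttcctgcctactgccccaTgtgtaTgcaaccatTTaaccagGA
Trim43c: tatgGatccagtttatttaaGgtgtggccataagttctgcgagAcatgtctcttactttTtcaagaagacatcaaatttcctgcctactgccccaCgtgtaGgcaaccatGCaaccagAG
Trim43a and Trim43b differed at 2 of these bases, and Trim43c differed from each of them at 9. A read covering the stretch thus carries 2 bases that tell Trim43a from Trim43b.

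Pramel4 and Pramel5 were 93.3% identical over their coding sequence, whereas every other pair among Pramel4, Pramel5, Pramel6 and Pramel7 shared 55.5 to 57.5%. The likeness of Pramel4 and Pramel5 extended upstream of the gene. The bases before the RefSeq start, cut where the annotated gene begins, are shown because these genes also moved together in single cells. They lie at chr4:144058875-144059124 on the plus strand for Pramel4 and chr4:144280489-144280716 on the minus strand for Pramel5, and capitals mark bases that differ or have no partner in the other gene:
Pramel4: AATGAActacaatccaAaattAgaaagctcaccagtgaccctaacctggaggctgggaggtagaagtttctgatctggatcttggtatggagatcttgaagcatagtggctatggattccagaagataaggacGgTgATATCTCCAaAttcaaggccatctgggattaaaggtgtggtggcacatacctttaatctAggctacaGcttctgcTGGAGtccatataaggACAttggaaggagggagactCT
Pramel5: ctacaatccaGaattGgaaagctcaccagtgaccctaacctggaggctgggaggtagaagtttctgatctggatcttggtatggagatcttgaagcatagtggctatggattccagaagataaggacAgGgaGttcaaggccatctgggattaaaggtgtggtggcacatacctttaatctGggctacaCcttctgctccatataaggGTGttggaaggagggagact
Of 228 aligned bases 218 were identical (95.6%). RefSeq windows of 250 bases before to 50 after the start were at hand for 5 of the 7 genes, and no such window was used for Trim43b and Trim43c. The 6 letters of a GATA motif, AGATAA on either strand, stood 127 bases before the start in Pramel4 and 133 bases before it in Pramel5, against 11.2% of all 32851 windows. GGAATG, a TEAD motif, was found only in Pramel7 of these 5 (218 bases before the start, 14.7% of all windows). The bases before the RefSeq start of Pramel7, chr2:87492419-87492668, lie inside the annotated gene, so this match does too. The octamer ATGCAAAT (1.74% of all windows) and the STAT motif TTCCNGGAA (1.15%) were found in none of the 5. These are matches of letters and were not tested as binding sites.

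Reads that fit several places were not counted by the authors. Of all 125-base words in the annotated transcripts, 74.0% in Pramel4 also occurred in another annotated gene, nearly all of them in Gm13102, a gene of the same stretch of chromosome 4 (chr4:144106474-144110101). The share was 23.4% in Trim43c, mostly words of an antisense gene, 9330159M07Rik, that overlaps it on the other strand (chr9:88840236-88858870), 9.82% in Trim43b, 5.18% in Trim43a, 0.522% in Pramel5 and 0 in Pramel6 and Pramel7. Unannotated copies were not searched. By this measure the level of Pramel4 is the most uncertain of the 7. Gm13102 stood at 161 ± 50.4 CPM in E3.5 WT/HET, 287 ± 220 in E3.5 MUT, 0 in EPI and PrE and 1.32 ± 1.78 in E4.5 MUT. If counted without strand, read pairs in the overlap of 9330159M07Rik and Trim43c fall in more than 1 gene and count for neither. 9330159M07Rik was at 2.69 and 18.9 CPM in E3.5 WT/HET and MUT, which does not show how many pairs Trim43c lost. Read pairs without a unique place made up 37.9 to 40.4% of pairs in E3.5 WT/HET embryos and 38.1 to 44.5% in E3.5 MUT, but 20.4 to 28.97% in EPI, 18.8 to 22.96% in PrE and 21.8 to 22.4% in E4.5 MUT, and the part of this in the stage differences was not tested.

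At E3.5 the 3 Trim43 genes were unequal in control ICMs and moved towards each other without OCT4. Trim43a led in controls. Its level ran from 621 to 1159 CPM with a median of 911 in the 7 WT/HET embryos, and was 1716, 1297, 1349 and 1355 CPM in the 4 MUT embryos, all above every control. The fitted difference was 0.72 log2 (SE 0.17), the smallest of the 7 genes. Trim43b ran from 101 to 429 CPM (median 197) in WT/HET and was 3128, 909, 1095 and 1302 CPM in MUT, again without overlap, a log2 difference of 3.01 (SE 0.43). Trim43c was low in controls, 3.83 to 181 CPM with a median of 20.4, and stood at 1677, 508, 369 and 569.3 CPM in MUT. For comparison, all MUT embryos lay above all WT/HET embryos in 3.47% of the genes tested, but this is the contrast that chose the members and nothing is read from it.

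The make-up of the family shows the same shift without reference to other genes. Trim43a gave 65.5 to 88.7% of the Trim43 counts of an E3.5 WT/HET embryo (median 80.5%) and 26.3 to 48.0% in E3.5 MUT (median 44.9%). The share of Trim43b went from 10.96 to 24.2% in WT/HET to 33.5 to 48.0% in MUT, and that of Trim43c from 0.373 to 10.2% to 13.1 to 25.7%. None of these 3 shares overlapped between the genotypes at E3.5. The shares of an embryo add up to the whole, so they are not separate results. Such shares were not computed for other families, and this contrast chose the genes, so nothing further is read from the lack of overlap. Summed over the copies, the family stood at 1124 ± 347 CPM (n = 7) in WT/HET and 3819 ± 1816 CPM (n = 4) in MUT.

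**Figure D1:**
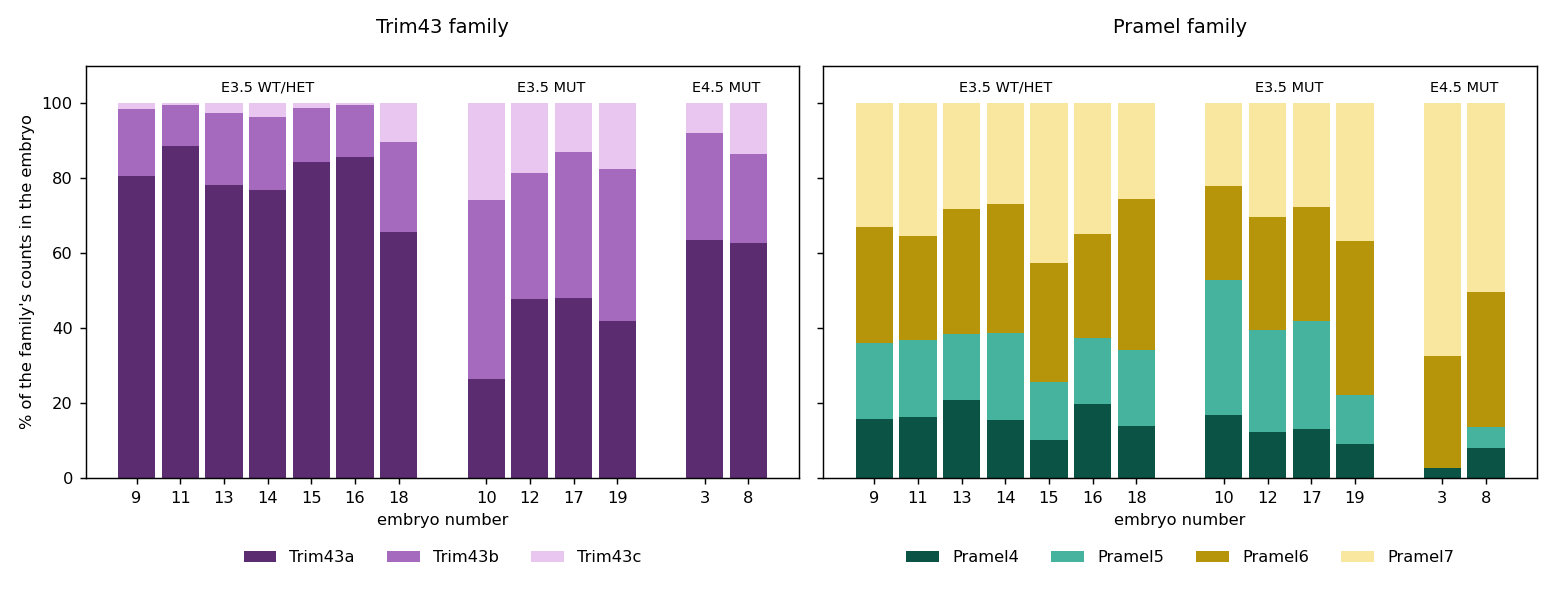
Percent of the Trim43 counts (left) and the Pramel counts (right) that each gene gave, one stacked bar per embryo of E3.5 WT/HET, E3.5 MUT and E4.5 MUT, with the embryo number on the horizontal axis. Trim43a fills 65.5 to 88.7% of the Trim43 bar in E3.5 WT/HET embryos and 26.3 to 48.0% in E3.5 MUT embryos. Of the groups shown, which leave out EPI and PrE, the Pramel7 share is highest in the E4.5 MUT embryos.

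The Pramel genes were also higher without OCT4 at E3.5, by less than Trim43b and Trim43c and with overlap between the genotypes for each of the 4. Pramel6 had a WT/HET range of 230.5 to 895 CPM (median 385) and MUT values of 1189, 657, 586 and 975 CPM, a log2 difference of 0.99 (SE 0.32). Only WT embryo 18, at 895 CPM, reached into the MUT range. Pramel7 ran from 289 to 564 CPM (median 429) in WT/HET and was 1051, 661, 540 and 876 CPM in MUT, a difference of 0.95 log2 (SE 0.22). The lowest MUT embryo lay below the highest WT embryo. Pramel5 ran from 145 to 449 CPM (median 247) in WT/HET and was 1716, 590, 560 and 312 CPM in MUT (1.67 log2, SE 0.41). Pramel4, with most of its sequence shared with Gm13102, ran from 110 to 308 CPM (median 197) in WT/HET and was 803, 269, 254 and 215 CPM in MUT (0.94 log2, SE 0.36).

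MUT embryo 10 (5 cells) was the highest MUT embryo for all 7 genes. Without it the log2 differences were at their lowest over all choices of 1 embryo left out, 0.62 for Trim43a, 2.46 for Trim43b, 3.56 for Trim43c, 0.28 for Pramel4, 0.94 for Pramel5, 0.79 for Pramel6 and 0.78 for Pramel7, and none turned negative. The values of Trim43b, Trim43c, Pramel4 and Pramel5 thus rest on this embryo for a sizeable share. In the same embryo 44.5% of read pairs had no unique place, the highest of the 4 MUT embryos. WT embryo 18 (6 cells) was the highest control for all 7 genes, and the Trim43c difference without it was 5.47 log2.

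**Figure D2:**
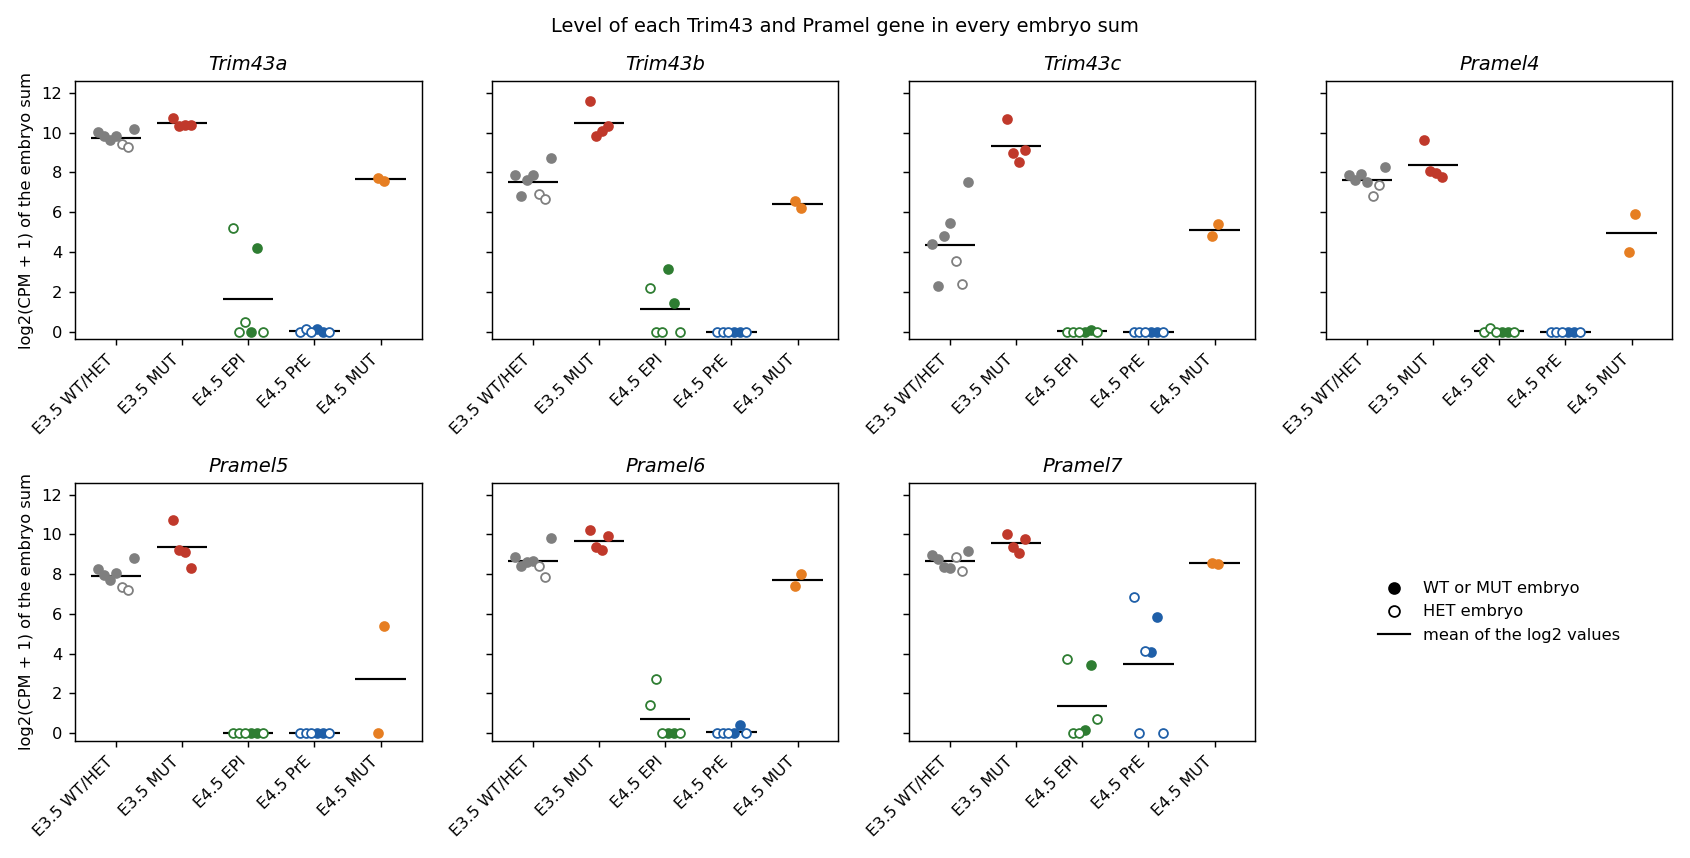
Level of each of the 7 genes in every embryo sum as log2(CPM + 1), in 5 groups, with 1 point per embryo (open for HET) and a bar at the mean of the log2 values. PrE points lie at or near 0 for all genes but Pramel7, EPI points reach 35.96 CPM at most (Trim43a), and both E4.5 MUT points lie above all EPI and PrE points of the gene except for Pramel5, where 1 of them is at 0.

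Taken per kilobase of exon, which allows genes to be compared, Trim43a was among the most abundant transcripts of the control ICM, at 443 CPM per kilobase and rank 86 of the 20939 genes counted in E3.5 WT/HET. Pramel6 and Pramel7 followed at ranks 256 and 280, Pramel5 at 531, Trim43b at 651, Pramel4 at 717 and Trim43c at 2451. In E3.5 MUT, with 18281 genes counted, Trim43a and Trim43b were at ranks 62 and 63, Pramel6 at 126, Trim43c at 131 and Pramel7 at 148.

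By E4.5 the controls had all but lost these transcripts. Trim43a was at 35.96, 0.398 and 17.7 CPM in the EPI sums of embryos 1, 4 and 6 and at 0 in the other 3, and PrE held 2 counts in all. Trim43b was at 3.596, 7.84 and 1.72 CPM in the EPI sums of embryos 1, 5 and 6 and at 0 in the other EPI and all PrE sums. Of Trim43c and Pramel4, 1 count each was found in EPI, and none in PrE. No Pramel5 count was found in EPI or PrE. Pramel6 was at 1.68 and 5.60 CPM in the EPI sums of embryos 1 and 2, at 0 in the other 4, and had 1 count in PrE. Over the pooled counts of each group, E3.5 WT/HET exceeded EPI 129-fold for Trim43a, 66.7-fold for Trim43b, 504-fold for Pramel6, 124-fold for Pramel7 and at least 4870-fold for Pramel5. Single EPI sums weigh on these values, which became 264 for Trim43a without embryo 6, 219.99 for Trim43b without embryo 5, 3119 for Pramel6 without embryo 2 and 313 for Pramel7 without embryo 6. The bound takes 3 counts over the group as the most that a count of 0 allows, with read pairs taken as independent. They carried no molecular identifiers, and 1 EPI cell gave 131 of the 170 Trim43b counts in EPI. The bound therefore does not cover the sampling of cells or of RNA molecules.

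Pramel7 was the exception among control lineages. It was at 116, 16.5, 15.97 and 57.3 CPM in the PrE sums of embryos 1, 4, 5 and 6 and at 0 in embryos 2 and 7. EPI sums of the same embryos held 12.5 CPM in embryo 1, 9.77 in embryo 6, 0.120 in embryo 5, 0.655 in embryo 7 and 0 in embryos 2 and 4. PrE was higher in 4 of the 6 embryos, the levels overlapped, and the means were 34.2 ± 45.04 and 3.84 ± 5.71 CPM (n = 6 each). The fitted log2 difference of EPI against PrE was -3.17 (SE 1.82). Both lineages entered the choice of the genes and Pramel7 passed the filter on low counts through PrE, so the difference is given without a test. Without embryo 1 or embryo 6, which held the highest PrE levels, Pramel7 no longer passed the filter.

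E4.5 MUT ICMs still held these transcripts, each at a mean level below that of E3.5 MUT and above those of EPI and PrE. Pramel7 stood at 380 and 368 CPM in embryos 3 and 8, within 1 SD of the 411 ± 103.5 CPM of E3.5 WT/HET embryos. Pramel6 was at 168 and 261 CPM and Trim43a at 212 and 192 CPM. Trim43b was at 94.9 and 72.7 CPM, Trim43c at 26.9 and 41.6 CPM and Pramel4 at 15.2 and 58.3 CPM. The 2 MUT embryos parted for Pramel5, which had no count in embryo 3 and 41.5 CPM in embryo 8.

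All of these values but that 0 lie above every EPI and PrE sum of the same gene. Over the pooled counts, E4.5 MUT exceeded EPI 31.4-fold for Trim43a (counting interval 28.4 to 34.9), 31.2-fold for Trim43b (26.7 to 36.7), 262-fold for Pramel6 (198 to 355), 117-fold for Pramel7 (102 to 136) and at least 360-fold for Pramel5. With a single EPI count each, the ratios of Trim43c and Pramel4 were 2050 (367 to 81068) and 2063 (369 to 81565). These ratios too rest on the few EPI sums with counts. They ran from 23.8 to 64.6 for Trim43a with 1 embryo left out (highest without EPI of embryo 6), from 25.3 to 102.9 for Trim43b (embryo 5), from 198 to 1622 for Pramel6 (embryo 2) and from 89.6 to 297 for Pramel7 (embryo 6), and Pramel5 gives none without MUT embryo 8. Against PrE the ratio for Pramel7 was 14.1 (13.3 to 14.9), and 32.2 without PrE of embryo 1, and Trim43b exceeded PrE at least 1431-fold. Both MUT embryos lay above all EPI sums in 14.7% of genes tested and above all PrE sums in 14.2%, and since these contrasts chose the members nothing further is read from the counts. With 2 MUT embryos, intervals of counts do not cover the spread between animals. Intervals and bounds also take read pairs as independent, though copies of 1 molecule could not be told apart.

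From E3.5 MUT to E4.5 MUT, with stage and plate not separable, all 7 genes were lower. The log2 difference was -1.13 for Pramel7, -2.06 for Pramel6, -2.89 for Trim43a, -3.46 for Pramel4, -4.33 for Trim43b, -4.58 for Trim43c and -5.33 for Pramel5. Single embryos decided some of these sizes. Pramel4 was at -2.81 without E4.5 MUT embryo 3 and -4.70 without embryo 8, and Trim43c at -3.89 without E3.5 MUT embryo 10. Pramel5 was at -4.34 without E4.5 MUT embryo 3, and with embryo 8 left out, so that no count remained at E4.5, E3.5 MUT exceeded E4.5 MUT at least 3723-fold. Pooled over the family the E3.5 MUT level was 9.75 times that of E4.5 MUT for Trim43 and 3.67 times for Pramel. The make-up moved with it. Trim43a, Trim43b and Trim43c gave a median of 63.1, 26.1 and 10.8% of the family's counts in E4.5 MUT. Pramel7 gave 67.4 and 50.5% of the Pramel counts in E4.5 MUT embryos 3 and 8. Its share was 22.1 to 36.8% in E3.5 MUT and 25.5 to 42.6% in E3.5 WT/HET. Among the fewer Pramel counts of E4.5 controls it was 99.4 to 100% in 4 PrE sums and 0 to 100% (median 100%) in 5 EPI sums. A high Pramel7 share was thus not particular to E4.5 MUT. Pramel5 gave 0 and 5.70% in E4.5 MUT against 13.1 to 36.1% in E3.5 MUT.

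**Figure D3:**
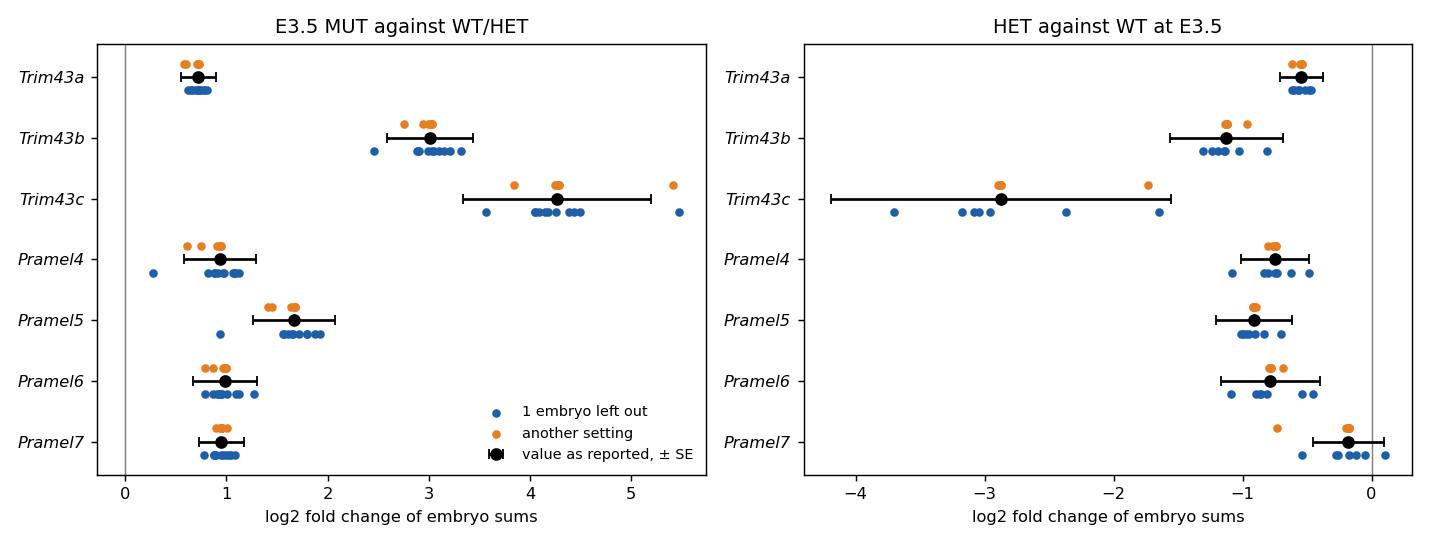
Log2 fold changes of the 7 genes between embryo sums, with the reported value ± SE in black and the values under the alternatives, including each embryo left out, as smaller points. All values of E3.5 MUT against WT/HET lie above 0, from 0.28 for Pramel4 without MUT embryo 10 to 5.47 for Trim43c without WT embryo 18, and HET against WT lies below 0 for all but 1 value of Pramel7.

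In single cells, the E3.5 ICM was nearly uniform in carrying these genes. Trim43a, Trim43b, Pramel4, Pramel6 and Pramel7 had a count in 58 of 58 WT/HET cells and 29 of 29 MUT cells, Pramel5 in 57 of 58 and 29 of 29, and Trim43c in 55 of 58 and 28 of 29. For Trim43c the counts were few in most control cells. It had a median of 5.26 CPM over WT/HET cells, reached 10 CPM in 21 of the 58, and 43.6% of its counts there came from 1 cell.

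At E4.5 the shares fell apart by genotype and by gene. Pramel7 was counted in 18 of 19 MUT cells, Trim43a and Pramel6 in 15 of 19 each (78.9%, exact Clopper-Pearson 95% interval 54.4 to 93.9), Trim43b in 12, Pramel4 in 7, Trim43c in 6 and Pramel5 in 4 of 19, the last all among the 8 cells of embryo 8. Among 37 EPI cells Trim43a and Pramel7 were counted in 6 each, Trim43b in 4, Pramel6 in 2, Trim43c and Pramel4 in 1 each and Pramel5 in 0, which allows a share of up to 8.11%. Among 29 PrE cells Pramel7 was counted in 11, Trim43a in 2, Pramel6 in 1 and the other 4 genes in 0, which allows up to 10.3% for each. Intervals and limits cover counting error only, as read pairs carried no molecular identifiers.

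The PrE cells with Pramel7 were spread unevenly over embryos, with 5 of 5 PrE cells in embryo 1. In 9 of the 11 the level reached 10 CPM. In EPI 14 of 37 cells had a count of any of the 7 genes, 8 had 5 counts or more of the 7 together and 6 reached 10 CPM, and the other 8 of the 14 lay between 0.498 and 2.79 CPM in their highest gene. One EPI cell of embryo 1 carried Trim43a at 112 CPM and Trim43b at 11.2 CPM, and 1 EPI cell of embryo 6 carried Trim43a at 84.5 CPM, Trim43b at 7.68 CPM and Pramel7 at 39.5 CPM. One EPI cell of embryo 5 had Trim43b at 67.4 CPM and no Trim43a count, and 1 of embryo 2 had Pramel6 at 56.4 CPM and none of the other 6 genes. These cells were picked out after their values were seen.

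Thinning every cell to 744458 counts, which left out 6 E3.5 WT/HET cells, 3 E3.5 MUT cells and 1 PrE cell, gave Pramel7 in 18 of 19 E4.5 MUT, 5 of 37 EPI and 10 of 28 PrE cells, and Trim43a in 13 of 19, 4 of 37 and 1 of 28. Median depths were close at E4.5, 1609943 counts in MUT, 1681933 in EPI and 1772045 in PrE.

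**Figure D4:**
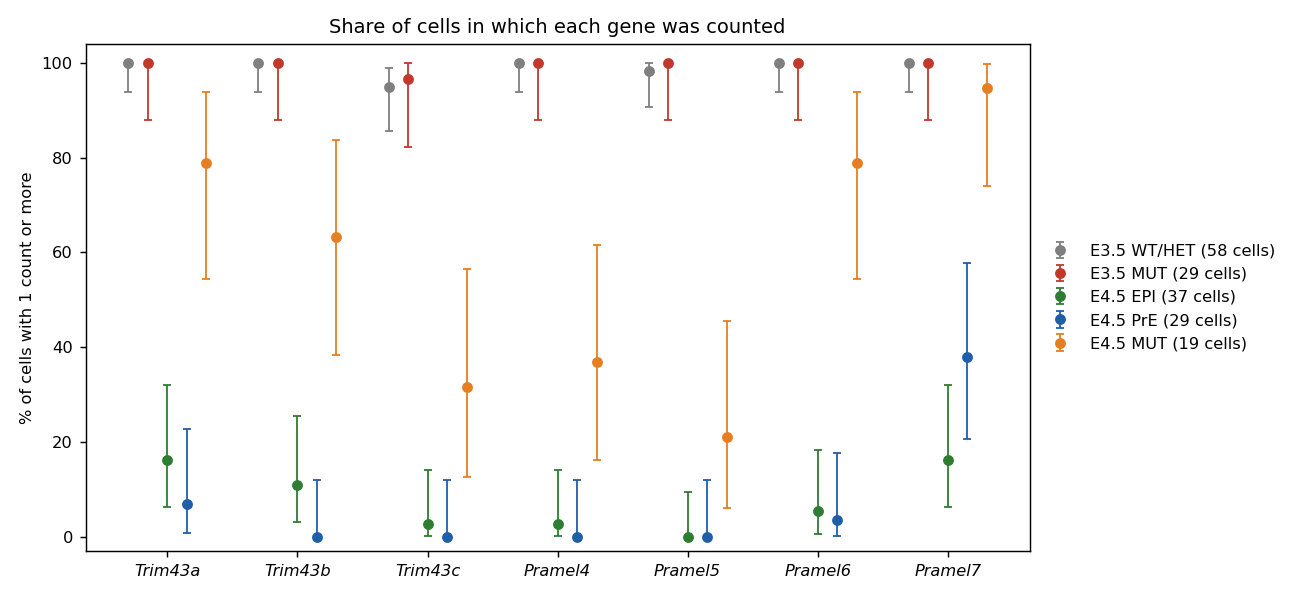
Percent of cells with 1 count or more of each gene in the 5 groups, with exact 95% intervals over cells for counting error only. Both E3.5 groups lie at or near 100% for all 7 genes, while E4.5 MUT runs from 4 of 19 cells for Pramel5 to 18 of 19 for Pramel7 and lies above EPI and PrE for each gene.

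Counting genes per cell, the median was 7 of 7 in both E3.5 groups, 0 in EPI and PrE and 4 in E4.5 MUT. Every E4.5 MUT cell had a count of at least 2 of the genes, 7 had at least 5 and 3 had all 7, whereas 23 of 37 EPI cells and 16 of 29 PrE cells had none. Individual E4.5 MUT cells differed widely. One cell of embryo 3 had Trim43a and Trim43b at 680 CPM each, Trim43c at 274, Pramel6 at 274 and Pramel7 at 695 CPM and no count of Pramel4 or Pramel5. One cell of embryo 8 had all 7, with Trim43a at 954 CPM, Trim43b at 447, Trim43c at 272, Pramel4 at 163 and Pramel6 at 634 CPM. Another cell of embryo 3 had Pramel4 at 78.5 CPM and Pramel7 at 3.00 CPM and nothing else.

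Across E4.5 MUT cells Pramel7 was the most even of the genes, with a median of 429 CPM and a coefficient of variation of 69.8%. The median was 145 CPM for Pramel6, 80.9 CPM for Trim43a and 4.202 CPM for Trim43b, and 0 for Trim43c, Pramel4 and Pramel5. The coefficient of variation was 267% for Trim43c and 345% for Pramel5, and 1 cell gave 76.2% of the Pramel5 counts.

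**Figure D5:**
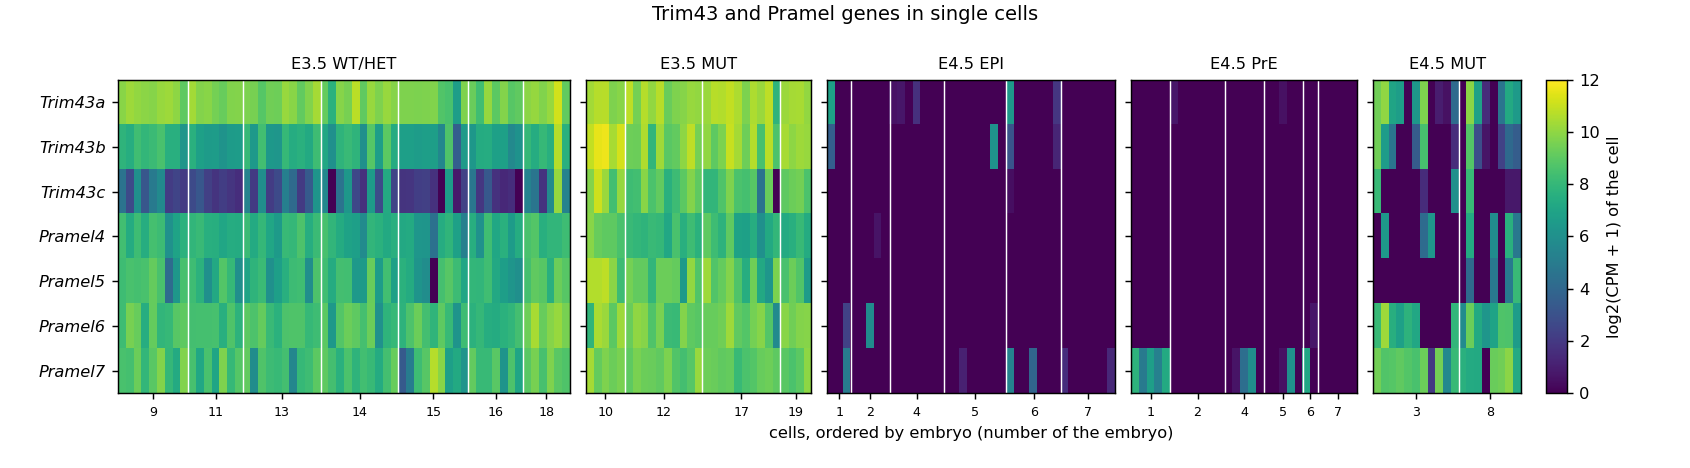
Heat map of log2(CPM + 1) of the 7 genes (rows) in every cell (columns), cells ordered by embryo within each of the 5 groups. E3.5 columns are filled in nearly all rows, EPI columns are mostly empty, PrE columns carry little but Pramel7, and E4.5 MUT columns are filled for Pramel7 and patchy for the other genes.

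The Trim43 genes varied together from cell to cell, as did Pramel4 and Pramel5, but the Pramel genes as a group did not stand out from pairs across the families. As Pearson correlations of log2(CPM + 1), given as a description over cells that share embryo and depth, Trim43b and Trim43c had 0.81 over 58 E3.5 WT/HET cells, 0.64 over 29 E3.5 MUT cells and 0.61 over 19 E4.5 MUT cells. Trim43a and Trim43b had 0.65, 0.49 and 0.88. Pramel4 and Pramel5 had 0.68, 0.69 and 0.64, and the part of their shared upstream sequence in this was not tested. The neighbours Pramel6 and Pramel7 had 0.21, -0.02 and 0.31. In the same order of groups, the median over the 3 Trim43 pairs was 0.65, 0.64 and 0.61 and over the 6 Pramel pairs 0.24, 0.08 and 0.18. The median over pairs of a Trim43 and a Pramel gene was 0.36, 0.23 and 0.28, and the highest such pair had 0.49, 0.68 and 0.43. Near-identical copies can also trade reads, and the part of this in the correlations was not tested.

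The genes with the most similar pattern over the 25 sums, by Pearson correlation of log2(CPM + 1) among 9366 genes with a mean of at least 5 CPM, differed between the members. They were Gulo (0.99), Gm3139 and Gm3106 for Pramel4, Gm5096 (0.99), Gm13102 and 4930444P10Rik for Pramel5, and Gulo (0.98), Gm6223 and Alppl2 for Pramel6. For Trim43a they were Gm5612 (0.97), Gm12617 and Bhmt, for Trim43b Gm3139 (0.96), Gulo and Gm5612, and for Trim43c Hand1 (0.96), Gm3286 and Aqp9. Pramel7 had the least close partners, Pcbp1 (0.92), Gm12892 and Hmga2. Gulo, the enzyme of the last step of ascorbate synthesis, was at 196 CPM in E3.5 WT/HET, 404 in E3.5 MUT, 0.012 in EPI, 0.30 in PrE and 59.4 in E4.5 MUT. Bhmt, a betaine-homocysteine methyltransferase, was at 1972, 3043, 6.49, 2.33 and 444 CPM in the same order. Among the members, Pramel4 correlated at 0.98 with both Pramel5 and Pramel6, and Pramel7 at 0.79 to 0.87 with the other 6. The members were chosen for a shared pattern over these sums, so nothing is read from their likeness to each other. Of genes that are no members, 6 followed Pramel4 more closely than Pramel5 did, and 365 followed Pramel5 more closely than Pramel7 did.

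HET and WT embryos at E3.5 were pooled when the genes were chosen, so their difference could be tested. All 7 genes were fitted lower in the 2 HET embryos than in the 5 WT embryos, and none passed the test. In simulated data with known changes, this comparison recovered 5 of 100 changes of 2-fold and 73 of 100 of 8-fold. The lack of calls therefore does not show that the levels were equal. The level was 657 ± 51.4 in HET and 967 ± 139 CPM in WT for Trim43a (-0.54 log2, SE 0.17, adjusted p 0.562 by edgeR) and 155 ± 14.3 and 295 ± 93.0 CPM for Pramel5 (-0.91, SE 0.29, adjusted p 0.567). Both HET embryos lay below all WT embryos for Trim43a, Pramel4 and Pramel5, which held for 6.82% of all genes tested. The differences were -1.13 (SE 0.44) for Trim43b, -2.87 (SE 1.32) for Trim43c, -0.75 (SE 0.26) for Pramel4, -0.78 (SE 0.39) for Pramel6 and -0.18 (SE 0.27) for Pramel7, with adjusted p from 0.592 to 0.925. Of 13351 genes 0 were called by edgeR and 1056 had an unadjusted p below 0.05, DESeq2 called 181 and limma 3, and no alternative called a member, with the lowest adjusted p 0.0843 for Pramel5. Of all genes, 52.9% were fitted lower in HET.

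Few other genes of these families and of early embryos could be tested, and few of them were called. Of 12 further PRAME family genes 4 could be tested at E3.5 and 0 were called between MUT and WT/HET by edgeR, against 6.18% of all genes. The median log2 difference of the 4 was 1.72, against -0.02 for all genes tested. Pramef12 was at 8.04 CPM in MUT and 2.29 in WT/HET, Pramel1 at 7.39 and 2.49 and Pramef17 at 4.35 and 0.245 CPM. Pramef8 went the other way, at 16.6 and 28.1 CPM, and none of these passed the test. Of 65 further TRIM genes 30 were tested, and Trim39 alone rose at E3.5, from 16.1 ± 7.91 to 54.4 ± 29.3 CPM (1.78 log2, SE 0.44, adjusted p 0.0324), a call that was lost in 7 of 11 fits with 1 embryo left out. At E4.5 Trim28, a corepressor that silences retroviral elements, fell by 1.03 log2 against EPI (SE 0.20, adjusted p 0.0176), with 4.92% of all genes called, and was lost without either MUT embryo. Trim28 stood at 417 ± 15.4 CPM in E4.5 MUT, 837 ± 119 in EPI and 248 ± 108 in PrE. Both MUT embryos lay above all PrE sums (0.76 log2, SE 0.42, adjusted p 0.406). EPI lay 1.76 log2 above PrE (SE 0.26) in a fit that did not pair the sums of an embryo, where 9.81% of all genes were called. EPI and PrE were assigned from these same transcriptomes, so the Trim28 difference between them is given without a test. Obox6, an oocyte homeobox gene, was the 1 gene of 7 Obox genes tested, and rose from 9.80 ± 12.5 to 93.1 ± 57.9 CPM at E3.5 (3.28 log2, SE 0.78, adjusted p 0.0268), lost in 5 of 11 fits with 1 embryo left out. Of 19 two-cell-stage genes 1 was tested and 0 were called, and the 1 tested at E3.5 was fitted 3.08 log2 higher in MUT.

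Of 24 oocyte genes 7 could be tested at E3.5 and 7 at E4.5 against EPI, and 2 of them passed, Khdc3 and Zp3. Khdc3, a component of the maternal complex beneath the egg's cortex, fell from 823 ± 159 to 307 ± 126 CPM without OCT4 at E3.5 (-1.41 log2, SE 0.24, adjusted p 0.00549), and was at 1110 ± 45.7 CPM in E4.5 MUT against 576 ± 129 in EPI (0.92 log2, adjusted p 0.0410) and 60.0 ± 55.0 in PrE (4.24 log2, adjusted p 0.0127). The call against EPI was lost in 7 of 8 fits with 1 embryo left out, and that against PrE without MUT embryo 3. Zp3, an egg coat protein, was at 0 in both E4.5 MUT embryos and at 38.2 ± 21.5 CPM in EPI (adjusted p 0.0488, lost in 7 of 8).

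The known partners and target of PRAMEL7, and Dnmt1 as the methyltransferase that UHRF1 brings to DNA, were taken as a list of 6 genes. At E3.5 Uhrf1, the target, fell from 151 ± 47.7 CPM in WT/HET to 4.71 ± 5.79 CPM in MUT (-4.95 log2, SE 0.80, adjusted p 0.00483), a call kept under every alternative run. Cul2, the cullin, fell from 570 ± 143 to 254 ± 99.5 CPM (-1.14 log2, SE 0.27, adjusted p 0.0270), lost without MUT embryo 17 or 19 and against WT alone. Rbx1, Elob, Eloc and Dnmt1 did not pass. At E4.5 against EPI, Uhrf1 stood at 76.6 ± 26.2 against 258 ± 82.3 CPM (-1.78 log2, adjusted p 0.0316), Cul2 at 69.9 ± 18.4 against 217 ± 46.0 CPM (-1.66 log2, adjusted p 0.0163) and Dnmt1 at 9.49 ± 6.84 against 62.3 ± 22.7 CPM (-2.74 log2, adjusted p 0.0474). Eloc, an elongin that links the receptor to the cullin, was at 388 ± 38.4 against 191 ± 36.2 CPM (0.99 log2, adjusted p 0.0410 by edgeR). It had stood at 2242 CPM in E3.5 WT/HET and 4314 in E3.5 MUT, and was at 193 in PrE. Leaving out 1 embryo lost the calls of Uhrf1 in 5, Cul2 in 2, Dnmt1 in 7 and Eloc in 6 of 8 fits. Every call against EPI named here, Trim28, Khdc3 and Zp3 included, was lost against WT alone. Among the E4.5 controls only embryos 5 and 6 were WT. With these as controls 48 of all genes were called, against 637 with all controls. Fewer embryos and the lack of HET controls therefore cannot be told apart in this loss. Against PrE 0 of the 6 were called, with 3.81% of all genes called there. In simulated data that comparison recovered 0 of 100 changes of 2-fold and 35 of 100 of 8-fold. These are RNA levels, and no protein of PRAMEL7 or UHRF1 was measured here.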

How the data were processed

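The measurements were single-cell RNA-seq counts of 172 mouse ICM cells, each a sample of its own. The authors aligned 125-base read pairs to mm10 with STAR and counted read pairs per Ensembl gene with HTSeq. The deposited values are raw counts per gene, with read pairs of no unique place (32.3% of all), of more than 1 gene (8.65%) or of no gene (4.72%) in separate rows that were kept out of library sizes and tests. Symbols and positions came from GENCODE M21, matched for 49412 of 49671 identifiers, and promoters from RefSeq on GRCm38.p6. Groups came from the labels, and the embryo of each cell from the study's sample sheet, which matched the labels for all 172 cells. The highest correlation between any 2 cells was 0.899.

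Counts were summed per embryo and lineage. Levels are CPM on TMM-scaled library sizes over all 25 sums, and values of single cells are CPM of the cell's own total. Fits used edgeR 4.0.16's quasi-likelihood test in R 4.3.3, with filterByExpr and Benjamini-Hochberg adjustment over all genes tested, called at 0.05, on the groups compared only. The study tested single cells, which share embryos. Alternatives were DESeq2 1.42.0, limma 3.58.1 on means of cells, other scalings and filters, WT embryos as the only controls, the replicate block and each embryo left out. The fits were tested on simulated data with known changes. Of 100 changes of 2-fold, 23 were recovered in E3.5 MUT against WT/HET, 1 in E4.5 MUT against EPI and 3 in EPI against PrE. The 7 members and all gene lists were chosen with earlier results of these data known. Named beside the members were Pou5f1, the PRAMEL7 list, defining lineage markers and the called genes of each list with the smallest adjusted p. The 3 genes most correlated with each member were named too, with further list genes given as examples after their values were seen.

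EPI and PrE sums of an embryo come from the same animal and are paired by it. Their deviations from the group means correlated at 0.0101 to 0.0845 in the 6 embryos over 7645 genes.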

Additional observations from a re-analysis of the deposited data

Results flagged for a closer look

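In groups of 4 to 10 embryos, 12 of 31 tested had 1 embryo farther from the rest than Dixon's 95% limit allows. That limit is set for normally distributed values, of which about 1 in 20 groups would pass it. Levels in CPM with many values of 0 need not follow it, so nothing is read from the number of flags. Since the 7 genes share embryos, the flags are not independent. E3.5 MUT embryo 10 stood apart with Trim43a at 1716 CPM (others 1297 to 1355), Trim43c at 1677 CPM (369 to 569.3), Pramel4 at 803 CPM (215 to 269), the Trim43 family at 6522 CPM (2714 to 3226) and the Pramel family at 4759 CPM (1940 to 2377). E3.5 WT embryo 18 stood apart with Trim43b at 429 CPM (others 101 to 234), Trim43c at 181 CPM (3.83 to 43.3) and Pramel6 at 895 CPM (230.5 to 467). Among control sums at E4.5, Pramel6 was at 5.60 CPM in the EPI sum of embryo 2 (others 0 to 1.68). In 3 further sums a single count stood against 0 in all others, which is always flagged. These were Trim43c at 0.0719 CPM in EPI of embryo 6, Pramel4 at 0.133 CPM in EPI of embryo 2 and Pramel6 at 0.325 CPM in PrE of embryo 6. The causes were not tested.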

How the results depend on the processing

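Depth limits single counts at E4.5, and 2 MUT embryos limit every E4.5 MUT value. Of the fold changes of the 7 genes in contrasts that chose them, 0 reversed, and 365 of 397 values with 1 embryo left out and 155 of 175 under other settings moved by less than the spread between embryos. In HET against WT no member was called under any alternative, and 1 direction reversed, Pramel7 at 0.10 log2 without HET embryo 16 (-0.54 to 0.10 with 1 embryo left out). With all read pairs in the library size, the Trim43 family stood at 539, 1520.4 and 201 CPM and the Pramel family at 627, 1121 and 405.6 CPM in E3.5 WT/HET, E3.5 MUT and E4.5 MUT. Genes called in E3.5 MUT against WT/HET numbered 746, with DESeq2 1607, limma 1353, WT embryos as the only controls 435, and 482 to 882 with 1 embryo left out (482 without WT embryo 14, 497 without MUT embryo 10). In E4.5 MUT against EPI they numbered 637, with DESeq2 1714, limma 1479, WT-only controls 48, and 226 to 774 with 1 embryo left out (407 without EPI of embryo 7, 226 and 271 without MUT embryos 3 and 8). In E4.5 MUT against PrE they numbered 466, with DESeq2 1224, limma 1097, WT-only controls 27, and 169 to 534 with 1 embryo left out (304 without PrE of embryo 2, 169 and 253 without MUT embryos 3 and 8). In EPI against PrE they numbered 958, with DESeq2 1451, limma 1824 and 649 to 916 with 1 embryo left out, and in HET against WT 0, with DESeq2 181 and limma 3. The counts of EPI against PrE are a description only, as these lineages were assigned from the same transcriptomes. The causes were not tested.

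With the embryo as a replicate block, EPI against PrE gave 840 genes called, and Pramel7 stood at -3.74 log2 (SE 2.10).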
